A study of Mus musculus with 24 samples.

Results

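The BCL2 family is a set of related proteins that decide whether a cell opens its mitochondria and dies. Its mRNAs were followed here in pools of mouse blastocysts, the hollow embryos that are about to implant. The genes are Bcl2l1, Mcl1 and Bcl2 (survival proteins), Bax and Bak1 (pore formers), and Bid, Bad, Bbc3, Pmaip1 and Bcl2l11 (BH3-only proteins). They were found by the gene name that the array files give to each probe, which matched all 10 genes with 22 of 56605 probes. After a filter on dim probes, 9 of the 10 genes entered the tests, among 18397 genes in all.

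The study measured total RNA of 24 pools on one-colour Agilent arrays. The pools carry the codes HC1, HC2, HC3, HC4, HC5 and HC6, with 4 pools per code and 1 array per pool. A pool held 15 frozen expanded blastocysts, except that each HC6 pool held 20, so code and pool size cannot be told apart for HC6. Bisphenol A, a plastic monomer with estrogen activity, and signalling by estrogen receptors of the membrane are the subject that the title names. No label ties a code to a control, an agent, a dose, a strain or a culture, so each code is treated as a condition of its own and no direction of a treatment is given. The labels also leave out whether the pools of a code came from separate animals or cultures, so that p-values measure only the spread between these pools, which may be technical.

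In textbook terms, survival proteins hold Bax and Bak1 inactive on the mitochondrial outer membrane, and BH3-only proteins bind the survival proteins or activate Bax and Bak1 directly. Once Bax or Bak1 assembles into a pore, cytochrome c leaves the mitochondrion and joins Apaf1 to start the caspases. Some cells of a normal mouse blastocyst die in this way, mainly in the inner cell mass, and much of the control over these proteins acts after transcription, where an mRNA array sees nothing of it.

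Several genes had more than 1 probe, and the probes of a gene did not always move together. The sequences of 4 probes that lie in protein-coding sequence are shown because results below are given for single probes of these genes. Each is the array's 60-base oligonucleotide, 5′ to 3′ in the sense of the mRNA, with mm9 coordinates as the files give them. The Bcl2 probe lies at chr1:108608970-108609029 on the minus strand, and no Bcl2 probe gave a usable signal. The Bcl2l1 probe lies at chr2:152655185-152655244 on the minus strand. The Bax probe spans chr7:52721469-52721624 on the minus strand, that is 156 bases of genome for 60 bases of probe, so it crosses a splice junction. The Bcl2l11 probe spans chr2:127972893-127983988 on the plus strand, 11096 bases of genome, and also crosses a junction. Its capitals mark a pair of adjacent codons inside the stretch that encodes the BH3 domain, the part of the protein that grips other family members.
Bcl2 coding probe: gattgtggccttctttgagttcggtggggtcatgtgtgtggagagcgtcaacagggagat
Bcl2l1 coding probe: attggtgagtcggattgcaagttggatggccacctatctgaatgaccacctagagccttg
Bax junction probe: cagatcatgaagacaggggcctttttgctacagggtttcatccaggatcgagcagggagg
Bcl2l11 junction probe: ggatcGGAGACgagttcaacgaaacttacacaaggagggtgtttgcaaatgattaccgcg

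Values are normalized log2 signals: the log2 of the processed signal of a probe minus the log2 of the 75th percentile of its array, so that a value of 1 lies at 2 times that percentile. A probe was detected on an array where the scanner software marked it well above background. A gene is represented by its brightest kept probe, and because probes differ in how well they bind, levels are compared between pools of one probe only. The 75th percentile of processed signal ranged from 65.1 to 177 over the arrays. The share of spots detected ran from 38.4% to 49.6%, and 0 spots were saturated. Arrays correlated with each other at r between 0.965 and 0.996 across the 13000 genes detected on all 24 arrays without a missing value. All 6 trophectoderm markers, all 5 inner cell mass markers and all 4 primitive endoderm markers examined were detected on all 24 arrays. Of the other cell types, the cumulus markers Amh, Fshr, Tnfaip6 and Inha, the red-cell marker Alas2 and the stromal markers Col1a2, Dcn and Lum were detected on 0 arrays, the cumulus marker Has2 on 9, while Foxl2 and Ptprc were detected on 24.

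No difference among the 6 conditions passed the tests for any of the 9 BCL2 family genes. By limma's moderated F-test with Benjamini-Hochberg adjustment over all genes, 0 of 9 genes passed an adjusted p of 0.05, against 0 of 18397 genes in all (0%), and 0 of 9 had an unadjusted p under 0.05, against 390 of 18397 (2.12%). Contrasts of a condition with the other 5 gave 54 combinations of gene and condition. Of these, 0 passed after adjustment (background 0%) and 3 had an unadjusted p under 0.05, against 3272 of 110382 (2.96%) over all genes and conditions. The 3 were Bid in HC1 (1 of 9 genes, background 3.29%), Bcl2l11 in HC5 (1 of 9, background 5.75%) and Pmaip1 in HC6 (1 of 9, background 3%), all BH3-only genes. In HC2, HC3 and HC4 the count was 0 of 9, where the background was 2.27%, 1.65% and 1.83%. Among the 15 pairs of conditions, 0 of 135 combinations passed after adjustment (background 0%) and 7 had an unadjusted p under 0.05, against 7983 of 275955 (2.89%). In a pool of whole embryos, fewer cells of a type and less RNA per cell cannot be told apart.

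The intervals set how large a difference in the brightest probe of a gene could have escaped, each taken alone without adjustment for the number of contrasts. They do not cover the other kept probes of a gene, which did not always follow the brightest one. All 54 of the 95% intervals for a condition against the other 5 stayed inside a 2-fold change up or down, and 51 of 54 lay within a 1.5-fold change. Their outer bounds were -0.70 for Bid in HC1 and 0.78 for Pmaip1 in HC6, on the log2 scale. All 135 pair intervals also lay within 2-fold. The median difference over the 9 genes was between -0.05 (HC1) and 0.10 (HC4), and over all genes tested it was between -0.02 (HC2) and 0.03 (HC4). In HC1, 1 of the 9 genes was above the mean of the other conditions, and in HC4 and HC5 7 of 9 were, with the values side by side in the plot of differences. The matching share of all genes was not counted. The median over all genes tested was -0.007 in HC1, 0.034 in HC4 and -0.013 in HC5. Over the 9 genes it was -0.051, 0.099 and 0.033.

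**Figure D1:**
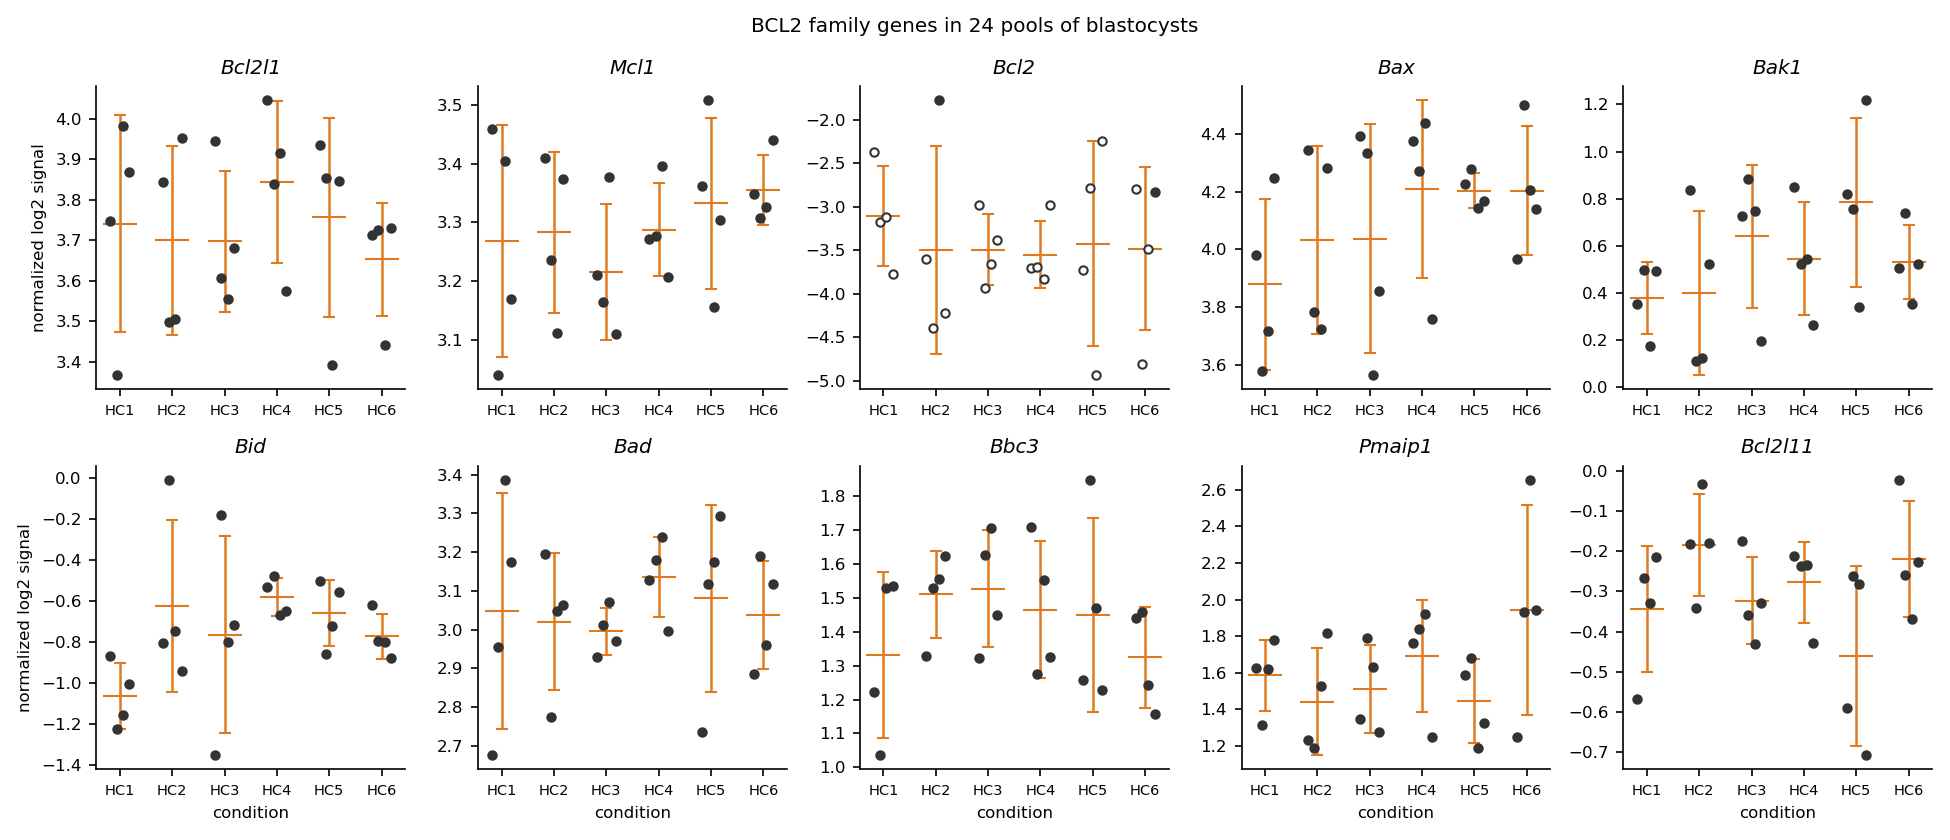
Normalized log2 signal (y axis, a separate scale for each gene) of the 10 BCL2 family genes in each of the 24 pools, by condition code (x axis). Filled points were well above background and open points were not, and the orange line and bars are the mean and SD of 4 pools. Each condition overlaps the rest for every gene, the highest Pmaip1 point is an HC6 pool at 2.66, and nearly all Bcl2 points are open.

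**Figure D2:**
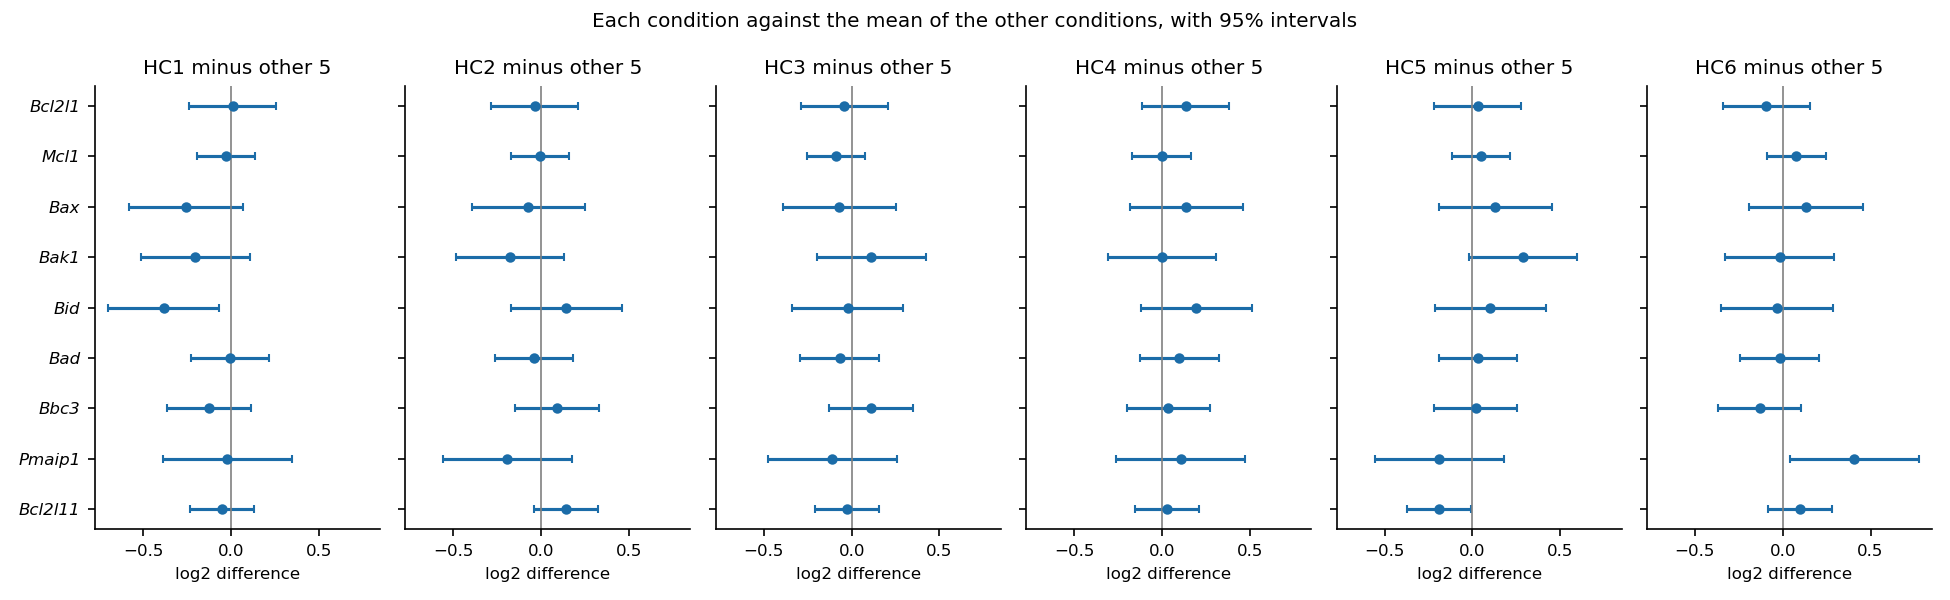
Log2 difference of each condition minus the mean of the other 5 conditions (x axis) for the 9 tested genes (y axis), with 95% intervals from limma. Of the 54 intervals, 3 leave out 0: Bid in HC1, Pmaip1 in HC6 and Bcl2l11 in HC5, and none of them passed after adjustment over all genes.

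Among the survival genes, Bcl2l1 encodes BCL-XL, the protein that protects many embryonic cells. Its brightest probe was detected on all 24 arrays. Bcl2l1 read 3.75, 3.37, 3.98 and 3.87 in the HC1 pools and 3.84, 3.50, 3.51 and 3.95 in the HC2 pools. It read 3.94, 3.61, 3.55 and 3.68 in the HC3 pools and 4.05, 3.84, 3.92 and 3.57 in the HC4 pools. The HC5 pools read 3.93, 3.85, 3.39 and 3.85, and the HC6 pools 3.71, 3.73, 3.44 and 3.73. The HC6 pools all lay below the 24-pool mean of 3.73, the other conditions had pools on both sides of it, and all conditions overlapped. The condition means ran from 3.84 ± 0.20 in HC4 to 3.65 ± 0.14 in HC6 (SD, n = 4 each), and neighbours in the order HC4, HC5, HC1, HC2, HC3, HC6 lay closer together than their SDs. The F-test gave an adjusted p = 1 (limma). HC4, the highest, differed from the other 5 by 0.13 (SE 0.12, 95% interval -0.11 to 0.38). It was 0.067 without HC4 replicate 1, 0.22 without HC4 replicate 4, 0.061 in the authors' deposited table, 0.085 after normexp correction and -0.029 with the mean of the kept probes.

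Bcl2l1 had 4 further probes, detected on 24, 18, 15 and 2 arrays, and none followed the brightest one: their correlation with it over the 24 arrays was between -0.27 and 0.22. The brightest probe and the second lie downstream of the others on the strand of the gene, and the coding probe printed above is annotated to transcript variant 3. The brightest and the second overlap in position and are annotated to the same transcript, yet had r = 0.081 over the 24 arrays. The second spans 47 bases of genome for its 60 bases of probe. The coding probe read -3.43, -3.01, -2.69 and -2.56 in the HC6 pools, where it was detected on 2 of 4 arrays, and was detected on 16 of 20 arrays of the other conditions. Its mean was -2.92 ± 0.38 in HC6 (SD, n = 4) and -2.42 ± 0.28 in the other pools (SD, n = 20), a difference of -0.50. With limma over all 27074 kept probes this had an unadjusted p under 0.05 and an adjusted p = 1.00, where 3.15% of kept probes had an unadjusted p under 0.05 in HC6. After normexp background correction the difference was -0.10, in the authors' deposited table it was -0.14, and without HC6 replicate 1 it was -0.33. The normexp correction adds an offset of 50, which narrows log2 differences of probes as dim as this one by construction. The same probe was higher in HC1, at -2.18 ± 0.15 (SD, n = 4) against -2.57 ± 0.34 in the other pools (SD, n = 20), with an unadjusted p under 0.05 and an adjusted p = 1.00 by limma, where the background share was 3.45%. That difference of 0.39 was 0.10 after normexp correction and 0.13 in the authors' deposited table. The brightest probe differed by -0.09 in HC6 and by 0.01 in HC1, so the probes of Bcl2l1 gave unlike values in both conditions.

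Mcl1, a short-lived survival protein that the early mouse embryo needs to implant, varied least of the 9 genes. It ranged from 3.04 to 3.51 over the 24 pools, a 1.39-fold span. Only 10.2% of the 13031 genes detected on all 24 arrays had a smaller SD than its 0.12. The condition means lay between 3.22 ± 0.12 in HC3 and 3.36 ± 0.06 in HC6 (SD, n = 4 each), with an F-test adjusted p = 1 by limma. The interval for HC6 minus the other 5 was -0.09 to 0.24. Mcl1 is the gene with the narrowest intervals, and its second probe, also detected on all 24 arrays, moved with the first (r = 0.740 over 24 arrays).

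Bcl2 itself, the founding survival gene, was at or below the limit of the arrays. The coding probe was detected on 2 of 24 arrays, 1 of HC2 and 1 of HC6, and the 2 other probes on 0. Its processed signal lay between 2.6 and 37.3, while the lowest signal of any probe marked well above background was between 10.2 and 24.3 on an array. Bcl2 was therefore not tested, and its values show only that it was not well above background on 22 of 24 arrays.

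Of the pore formers, Bax was detected on all 24 arrays. Bax read 3.98, 3.58, 3.72 and 4.25 in the HC1 pools and 4.34, 3.78, 3.72 and 4.28 in the HC2 pools. It read 4.39, 4.33, 3.56 and 3.86 in the HC3 pools and 4.37, 4.27, 4.44 and 3.76 in the HC4 pools. The HC5 pools read 4.22, 4.28, 4.14 and 4.17, and the HC6 pools 3.97, 4.50, 4.21 and 4.14. The HC5 pools lay close together, with an SD of 0.06, while HC3 pools spread over an SD of 0.40, and every condition overlapped every other. The means were ordered HC4, HC5, HC6, HC3, HC2, HC1, and the lowest, HC1, averaged 3.88 ± 0.30 (SD, n = 4) against 4.14 ± 0.27 in the other pools (SD, n = 20). That difference of -0.26 had a 95% interval of -0.58 to 0.07 (limma, adjusted p = 1.00), and the F-test gave an adjusted p = 1. Without HC1 replicate 2 the difference was -0.16, and within slide 3 it was 0.14.

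The junction probe of Bax, printed above, was detected on all 24 arrays too, but did not follow the first probe (r = -0.16 over 24 arrays). In HC1 it was also below the other conditions, at 1.57 ± 0.21 (SD, n = 4) against 1.72 ± 0.18 (SD, n = 20), with an adjusted p = 1.00 over all kept probes (limma). In HC6 the probes took opposite signs, with differences from the other 5 of 0.13 for the first and -0.14 for the junction probe, each with an adjusted p = 1.00 (limma). The difference of Bax minus Bcl2l1 within an array, centred on its 24-array mean, is often read as a balance of death and survival genes. It averaged -0.22 ± 0.28 in HC1 and 0.19 ± 0.26 in HC6 (SD, n = 4 each), with the other 4 condition means between -0.03 and 0.08. The HC1 pools read -0.13, -0.15, -0.63 and 0.02, so the HC1 mean leans on replicate 3. The HC6 pools read -0.11, 0.41, 0.40 and 0.05, and the ranges of HC1 and HC6 overlapped. The balance is given as a description of the brightest probes.

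Bak1, the second pore former, had 1 probe, detected on all 24 arrays. Bak1 read 0.35, 0.50, 0.17 and 0.49 in the HC1 pools and 0.84, 0.11, 0.12 and 0.52 in the HC2 pools. It read 0.73, 0.88, 0.75 and 0.20 in the HC3 pools and 0.85, 0.52, 0.54 and 0.26 in the HC4 pools. The HC5 pools read 0.82, 0.76, 0.34 and 1.22, and the HC6 pools 0.51, 0.74, 0.35 and 0.52. HC5 replicate 4 held the highest value of all, and another HC5 pool lay inside the range of HC1. Replicate 4 of HC5 was on the array with the lowest 75th percentile, 65.1. Over the 24 arrays, Bak1 had r = -0.36 to the log2 of the 75th percentile. The part of array brightness in the Bak1 values was not tested. HC5 averaged 0.78 ± 0.36 (SD, n = 4) against 0.50 ± 0.25 in the other pools (SD, n = 20), a difference of 0.29 with a 95% interval of -0.02 to 0.60 (limma, adjusted p = 0.848). Without HC5 replicate 4 the difference was 0.14, and without HC5 replicate 3 it was 0.43. Of the 15 pairs, HC1 minus HC5 was the one with an unadjusted p under 0.05, at -0.41 (limma, adjusted p = 1).

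Bid is cut by caspase-8 and then carries a death-receptor signal to the mitochondria. Bid read -0.87, -1.23, -1.16 and -1.01 in the HC1 pools and -0.81, -0.01, -0.75 and -0.94 in the HC2 pools. It read -1.35, -0.18, -0.80 and -0.72 in the HC3 pools and -0.53, -0.48, -0.67 and -0.65 in the HC4 pools. The HC5 pools read -0.50, -0.86, -0.72 and -0.56, and the HC6 pools -0.62, -0.79, -0.80 and -0.88. The HC1 pools were all below the HC4 pools, and below the HC5 pools, where the nearest values were -0.87 in HC1 and -0.86 in HC5. These were the 2 of 135 combinations of gene and pair without overlap of pools. The share without overlap over all genes was not counted. The HC1 pools overlapped HC2 and HC6, and 1 HC3 pool was lower than any HC1 pool.

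HC1 averaged -1.06 ± 0.16 for Bid (SD, n = 4) against -0.68 ± 0.28 in the other pools (SD, n = 20). The difference was -0.38 (SE 0.15, 95% interval -0.70 to -0.07), with an unadjusted p under 0.05 and an adjusted p = 1.00 by limma. The sign was the same within each slide, at -0.36, -0.48 and -0.24 on slides 1, 2 and 3, and leaving out any 1 array kept the difference between -0.45 and -0.33. HC1 minus HC4 was -0.48 and HC1 minus HC2 was -0.44, each with an unadjusted p under 0.05 and an adjusted p = 1 (limma). The second Bid probe was detected on 0 arrays, so Bid rests on 1 probe. After normexp background correction the HC1 difference was -0.22, where the offset of 50 narrows log2 differences at Bid's signals of 40.1 to 112.

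Bad, which is switched off by growth-factor kinases, and Bbc3, a p53 target that binds all survival proteins, gave no condition with an unadjusted p under 0.05. Bad ranged from 2.68 to 3.39 over the 24 pools, a 1.64-fold span, with condition means from 3.14 ± 0.10 in HC4 to 2.996 ± 0.06 in HC3 (SD, n = 4 each). Both the highest and the lowest pool of Bad belonged to HC1. Bbc3 ranged from 1.04 to 1.85, a 1.76-fold span, with condition means from 1.53 ± 0.17 in HC3 to 1.33 ± 0.15 in HC6 (SD, n = 4 each). The F-test gave an adjusted p = 1 for both genes (limma). The intervals for HC6 minus the other 5 were -0.24 to 0.20 for Bad and -0.37 to 0.11 for Bbc3.

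Pmaip1 encodes NOXA, a p53 target that binds and removes MCL1, and had the widest spread of the 9 genes. Pmaip1 read 1.63, 1.32, 1.62 and 1.78 in the HC1 pools and 1.23, 1.19, 1.53 and 1.82 in the HC2 pools. It read 1.35, 1.79, 1.63 and 1.28 in the HC3 pools and 1.76, 1.84, 1.92 and 1.25 in the HC4 pools. The HC5 pools read 1.59, 1.68, 1.19 and 1.32, and the HC6 pools 1.25, 1.93, 2.66 and 1.94. In HC6, 3 of the 4 pools were above all pools of the other conditions, and the remaining HC6 pool was among the lowest of the series. From the lowest to the highest pool Pmaip1 spanned 2.76-fold, and 84.1% of the 13031 genes detected on all 24 arrays had a smaller SD.

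HC6 averaged 1.94 ± 0.57 for Pmaip1 (SD, n = 4) against 1.54 ± 0.25 in the other pools (SD, n = 20). The difference was 0.41 (SE 0.18, 95% interval 0.04 to 0.78), with an unadjusted p under 0.05 and an adjusted p = 1.00 by limma. It turned on single pools: without HC6 replicate 3 it was 0.17, and without HC6 replicate 1 it was 0.64 (adjusted p = 0.505, limma). HC2 minus HC6 and HC5 minus HC6 were both -0.50, each with an unadjusted p under 0.05 and an adjusted p = 1 (limma).

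Pmaip1 also differed between slides. Per slide it averaged 1.41, 1.84 and 1.56 on slides 1, 2 and 3 (n = 8 each), and the moderated F-test over slides gave an unadjusted p just under 0.05 and an adjusted p = 0.870 (limma), where 5.72% of all genes had an unadjusted p under 0.05. The low HC6 pool was on slide 1 and the highest on slide 2. Within slides, HC6 minus the other conditions was -0.23 on slide 1, 0.62 on slide 2 and 0.40 on slide 3, and with slide as a block in the model it was 0.34. Bad was the other gene with an unadjusted p under 0.05 over slides, with means of 2.91, 3.12 and 3.13 (adjusted p = 0.791, limma). The part of the slide in the values of Pmaip1 and Bad was not tested beyond these comparisons.

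**Figure D3:**
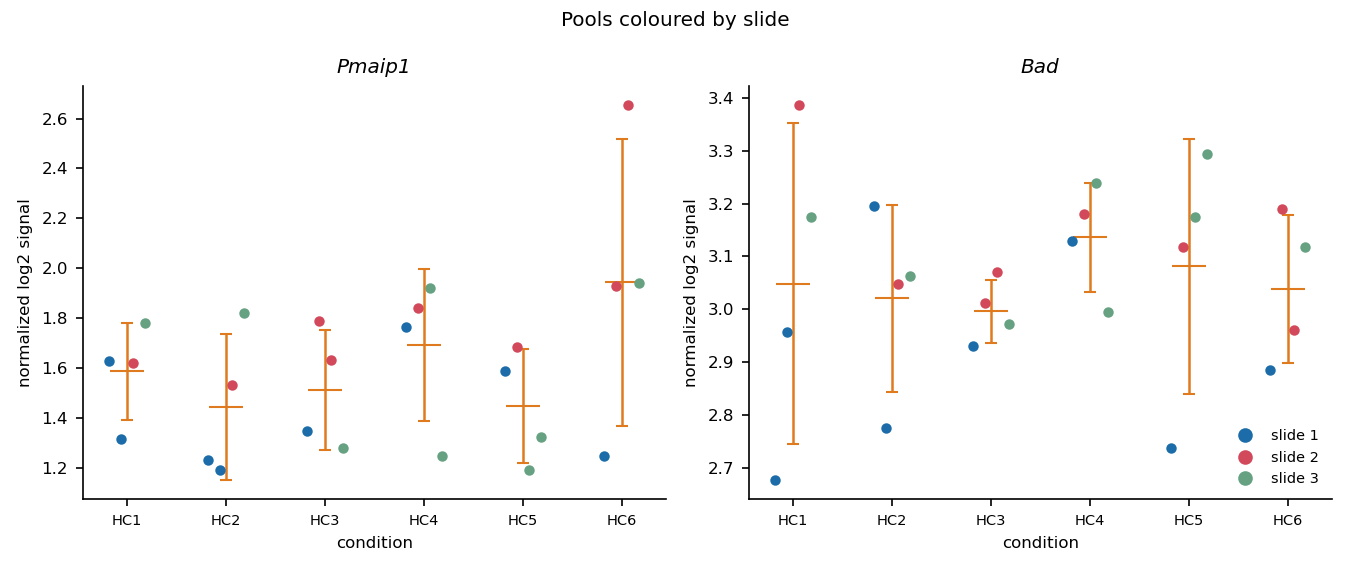
Normalized log2 signal (y axis) of Pmaip1 and Bad in each pool by condition code (x axis), coloured by the slide the array was on, with the mean and SD of 4 pools in orange. Slide 1 pools of Pmaip1 average 1.41 and slide 2 pools 1.84, and the highest point, at 2.66 in HC6, was on slide 2.

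Bcl2l11 encodes BIM, a BH3-only protein made in several splice forms. Its brightest probe lies downstream of the junction probe, and read -0.57, -0.27, -0.33 and -0.21 in the HC1 pools and -0.18, -0.34, -0.03 and -0.18 in the HC2 pools. This Bcl2l11 probe read -0.17, -0.36, -0.43 and -0.33 in the HC3 pools and -0.21, -0.24, -0.23 and -0.43 in the HC4 pools. The HC5 pools read -0.59, -0.26, -0.28 and -0.71, and the HC6 pools -0.02, -0.26, -0.37 and -0.23. In HC5, 2 pools were below every pool of the other conditions and the other 2 lay among them. HC5 averaged -0.46 ± 0.22 (SD, n = 4) against -0.27 ± 0.13 in the other pools (SD, n = 20).

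The HC5 difference of the brightest Bcl2l11 probe was -0.19 (SE 0.09, 95% interval -0.37 to -0.01), with an unadjusted p under 0.05 and an adjusted p = 0.848 by limma. Without HC5 replicate 4 it was -0.11, after normexp background correction -0.11, and in the authors' deposited table -0.12. With the mean of the gene's kept probes in its place it was 0.26. Both other kept probes of the gene were higher in HC5. The junction probe, detected on 23 of 24 arrays, read -2.16, -1.88, -1.50 and -1.16 in the HC5 pools. It averaged -1.67 ± 0.43 in HC5 (SD, n = 4) against -2.10 ± 0.25 in the other pools (SD, n = 20), a difference of 0.43, or 0.26 without HC5 replicate 4. A probe annotated to transcript variant 4, detected on 15 of 24 arrays, read -2.45, -2.35, -2.34 and -1.71 in the HC5 pools, a difference of 0.55 from the other conditions.

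Over all kept probes, where 6.23% had an unadjusted p under 0.05 in HC5, the junction probe had an adjusted p = 0.791 and the variant 4 probe an adjusted p = 0.727 by limma, each with an unadjusted p under 0.05. The brightest probe correlated negatively with both (r = -0.33 and r = -0.27 over 24 arrays), while the junction and variant 4 probes correlated with each other (r = 0.515). The junction and variant 4 probes also followed the overall brightness of the array, with r of -0.61 and -0.68 to the log2 of its 75th percentile, against 0.35 for the brightest probe. The array with the lowest 75th percentile, 65.1, was HC5 replicate 4, which held the highest value of both probes and the lowest of the brightest probe. Under normexp background correction the HC5 differences of the junction and variant 4 probes were 0.18 and 0.12. Their processed signals were 19.0 to 41.6 and 12.5 to 28.0. The offset of 50 in that correction narrows log2 differences of such dim probes by construction. The part of array brightness in these values was not tested. A last probe of Bcl2l11 was detected on 2 arrays, HC2 replicate 4 at 0.78 and HC4 replicate 4 at -0.92, and was not tested.

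**Figure D4:**
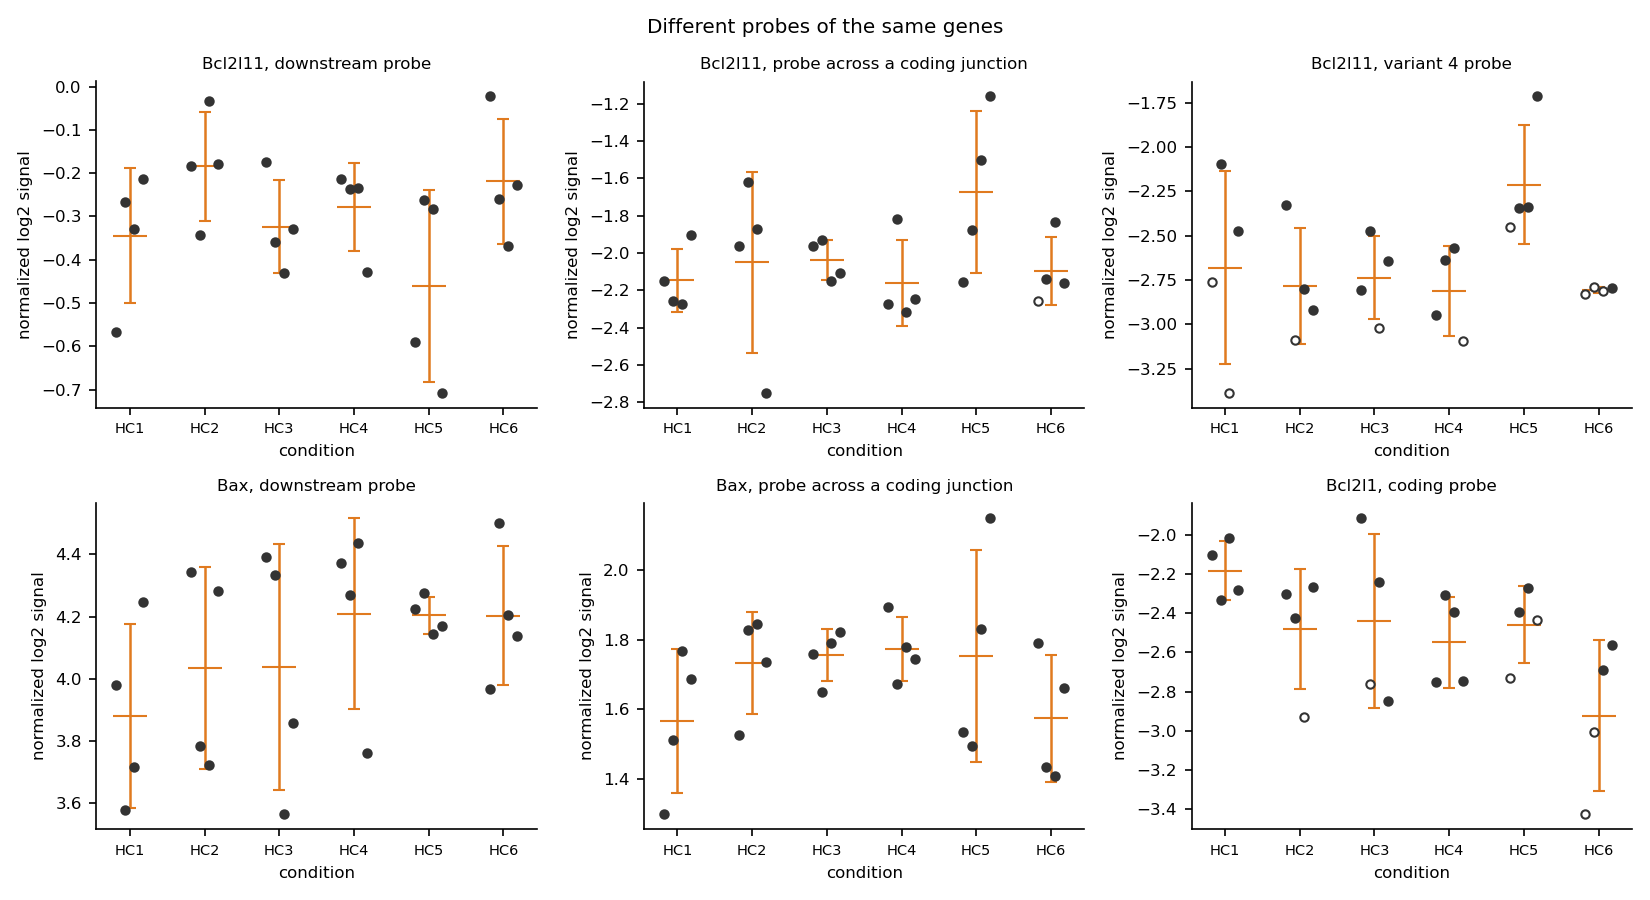
Normalized log2 signal (y axis, a separate scale for each probe) of different probes of Bcl2l11, Bax and Bcl2l1 in each pool by condition code (x axis), with the mean and SD of 4 pools in orange and open points where a probe was not well above background. In HC5 the downstream Bcl2l11 probe is lower, at -0.46, and the junction probe is higher, at -1.67, than in the other conditions, where they average -0.27 and -2.10.

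Between pools, the highest correlations joined survival genes and pore formers, with the BH3-only gene Pmaip1 in the fifth. The 5 highest of the correlations over 24 arrays were 0.545 for Bcl2l1 with Bax, 0.547 for Bax with Bak1, 0.50 for Bcl2l1 with Mcl1, 0.418 for Bcl2l1 with Bak1 and 0.401 for Bax with Pmaip1. The lowest was -0.29, for Bak1 with Bcl2l11. Of 9986 named genes detected on all arrays, 95% had an r with Bax below 0.689, and the median was 0.192. The correlations use the brightest probe of each gene, and the junction probe of Bax had r = -0.16 with its brightest probe. The points share slides, array brightness and condition, so the correlations describe these arrays and carry no test.

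**Figure D5:**
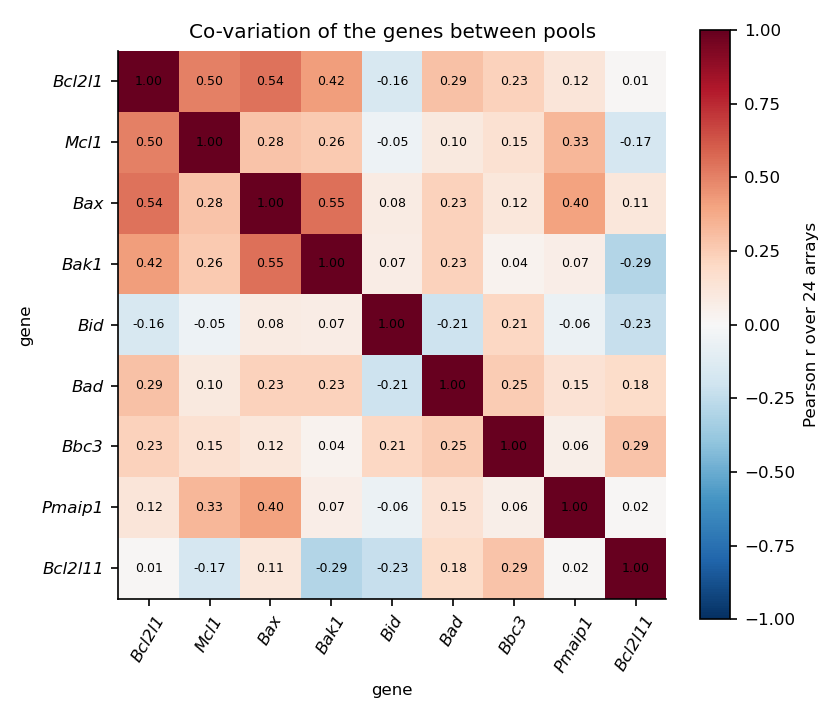
Pearson correlation of the normalized log2 signals of each pair of the 9 tested genes over the 24 arrays (both axes list the genes, colour runs from -1 to 1). Bax correlates with Bak1 at 0.55 and with Bcl2l1 at 0.54, while Bid has correlations between -0.23 and 0.21 with the others and Bcl2l11 between -0.29 and 0.29.

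The genes whose pattern over the 24 arrays was most like that of a family member were listed for the 3 members with the widest spread, among 9986 named genes detected on all arrays. For Pmaip1 they were Mterf1a (r = 0.824), Polm (r = 0.798) and Caprin2 (r = 0.791), where 95% of genes lay below 0.578. For Bid they were Dpcd (r = 0.662), Mmd (r = 0.662) and Cmtm3 (r = 0.613), with 95% of genes below 0.272. For Bax they were Mrpl19 (r = 0.911), Gins2 (r = 0.905) and Rps19 (r = 0.901), with 95% of genes below 0.689.

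The rest of the pathway was read from the same fits, and 0 genes of any list passed after adjustment (background 0%). Of the other BCL2 relatives, 13 of 15 were on the array and 10 were tested. The smallest F-test p-values belonged to Bmf, a BH3-only gene, Bcl2l15, and Bok, a relative of Bax, each with an adjusted p = 1 (limma). Bmf was detected on 19 arrays, with condition means from -2.92 ± 0.91 in HC6 to -2.20 ± 0.35 in HC1 (SD, n = 4 each). Bcl2l15 averaged -1.20 ± 0.57 in HC6 (SD, n = 4), and between -2.03 and -1.74 in the other 5 conditions. Bok averaged 4.29 ± 0.29 in HC5 (SD, n = 4), and between 3.92 and 4.17 elsewhere. Bik, Bcl2l10 and Bcl2a1d were detected on 0 arrays.

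Downstream of the pore, all 15 apoptosome and caspase genes were tested, and 0 of 15 had an F-test p under 0.05. Apaf1, the scaffold that cytochrome c binds, averaged -2.35 ± 0.88 in HC5 (SD, n = 4), and between -1.85 and -1.46 in the other conditions (limma F-test, adjusted p = 1). Casp8, the caspase that cuts Bid, was detected on 4 of 24 arrays, so its values lie mostly at background. Dffa, which holds a DNA-cutting nuclease in check, had condition means between -1.58 and -1.17 (adjusted p = 1 for both by limma). Of the inhibitors of apoptosis, 5 of 6 were tested. Birc3 was detected on 8 arrays only. The caspase inhibitor Xiap had condition means between 2.07 and 2.35, and Birc2 between -1.42 and -1.10, and all 3 had an adjusted p = 1 by limma.

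Among the 8 death-receptor genes, Fasl, the ligand that starts the route through Bid, was the 1 gene with an unadjusted F-test p under 0.05 (limma, adjusted p = 1), beside a background of 2.12%. Fasl averaged -3.14 ± 1.04 in HC1 and -2.44 ± 0.72 in HC6, and between -1.69 and -1.03 in the other 4 conditions (SD, n = 4 each), and was detected on 19 of 24 arrays. Ripk1 averaged -0.96 ± 0.54 in HC1 (SD, n = 4), and between -1.61 and -1.41 in the other conditions, and Tnfrsf10b averaged 0.72 ± 0.25 in HC5 (SD, n = 4), and between 0.91 and 1.15 elsewhere (limma F-test, adjusted p = 1 for both). The condition means of the mitochondrial channel Vdac1 lay between 6.48 and 6.65, those of the fusion gene Opa1 between 1.65 and 1.86, and those of Ppif between 0.38 and 0.54. Of the 7 mitochondrial partner genes and the 8 transcriptional inducers of the family, 0 had an unadjusted F-test p under 0.05. Trp63, a p53 relative, averaged 3.75 ± 0.66 in HC2 (SD, n = 4), and between 3.28 and 3.47 in the other conditions. The p53 inhibitor Mdm2 had condition means between 4.11 and 4.29, Foxo3 between 0.08 and 0.32, and the p53 gene Trp53 between 0.04 and 0.36, each with an adjusted p = 1 by limma.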

How the data were processed

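The authors scanned the arrays with Agilent software, and each deposited file lists a linear intensity per spot. Per the file headers the software was Feature Extraction, version 10.10.1.1, and it had subtracted background and removed spatial trends inside an array. limma is named in the submitters' processing notes without a version. The authors' deposited table of log2 values was used as an alternative, and its exact normalization is not given in the sources used here.

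From the processed intensity, control and outlier spots were dropped, log2 values were scaled to each array's 75th percentile, and spots of a probe were averaged. Probes needed signal well above background on 4 or more of the 24 arrays, with 2 values in each condition. Of 56605 probes 27074 passed, and 16 of 22 family probes. limma 3.58.1 in R 4.3.3 fitted the 6 condition means, with eBayes tests and Benjamini-Hochberg adjustment at 0.05: an F-test, each condition against the other 5, and all 15 pairs. The median SE of a condition contrast was 0.15, and the number of arrays limits the precision. The same code was tested on simulated data. Alternatives changed normalization, background, filters, probes, slide, pairing, weights or left out an array. The normexp alternative added an offset of 50 to the signals, which narrows log2 differences of dim probes by construction.

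The family members, the lists and the tests were chosen with earlier results of these data known. The text describes all 10 members, up to 3 genes of smallest F-test p in each list, and, for the 3 members of widest spread, the 3 genes most correlated with each. Trp53, the marker genes and the relatives detected on no array were named outside this rule. Genes named only by an accession, probe, Gm number or Rik clone were not named.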

Additional observations from a re-analysis of the deposited data

Results flagged for a closer look

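In 3 of 54 groups of 4 pools, 1 pool lay far from the other 3, with a gap to its nearest neighbour, as a share of the group's range, above the 95% critical value of Dixon's test, where chance flags about 1 in 20 groups. For Bcl2l1 in HC5, replicate 3 was the lowest at 3.39, while the other pools lay between 3.85 and 3.93. For Bcl2l1 in HC6, replicate 3 was again the lowest, at 3.44, with the others between 3.71 and 3.73. For Bcl2l11 in HC4, replicate 4 was the lowest, at -0.43, with the others between -0.24 and -0.21. The cause of these gaps was not tested.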

How the results depend on the processing

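Of 25 results recomputed under their alternatives (911 values), 904 were counted as unchanged. A value within a single slide was unchanged if it lay within the mean within-condition SD of the main value, whatever its sign. Otherwise it was counted as moved. The other values had to keep their side of the threshold and, for differences, their direction. In the F-test, the condition contrasts and the pairs, 0 of the family's genes passed after adjustment under any alternative. Averaging all kept probes of a gene in place of the brightest turned 2 signs: Bcl2l11 in HC5 became 0.26 and Bcl2l1 in HC4 became -0.029, where the other probes of the gene enter the mean by construction. Within single slides, where 1 or 2 pools stand for a condition, 5 values moved: Pmaip1 in HC6 to -0.23 on slide 1, Bbc3 in HC6 to 0.07 on slide 1, Bax in HC1 to 0.14 on slide 3, and Bcl2l11 in HC5 to -0.37 on slide 1 and -0.001 on slide 2. Normexp correction and the authors' deposited table gave smaller differences for Bcl2l1's coding probe in HC6, at -0.10 and -0.14, and for Bid in HC1, at -0.22 and -0.24. For normexp, the offset of 50 narrows the differences of such dim probes by construction. Alternatives for single probes were added after seeing the data. Replicate numbers were tried as a pairing. Of 60 same-numbered pairs, 29 correlated above 0.1 in their deviations, with a range of -0.48 to 0.50. The median was 0.05, against 0.01 for pairs of other numbers. Among the other conditions, 14 of 24 arrays correlated best with an array of their own number, which 1 of the 4 arrays of each condition carries. The main fit did not treat the numbers as pairs, and with the replicate block 0 members passed. Whether arrays of the same number shared a batch was not tested. Without HC6 replicate 1, Pmaip1 was the 1 member with an unadjusted F-test p under 0.05 (limma, adjusted p = 0.9965). Under every other alternative 0 members had one. The share of all genes with an unadjusted p under 0.05 was not counted for the alternatives. Dim signal limits Bcl2, detected on 2 of 24 arrays, and the dimmer probes of Bcl2l1 and Bcl2l11.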
